A study of Mus musculus with 27 samples.

Results

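The MHC class I presentation genes described here are 10 genes chosen by name: the heavy chains H2-K1 and H2-D1, the light chain B2m, the peptide transporter subunits Tap1 and Tap2, the loading factor Tapbp, the inducible proteasome subunits Psmb8, Psmb9 and Psmb10, and the transcriptional regulator Nlrc5. All 10 were found among the 48440 genes of the bulk RNA count files and among the 33696 genes of both single-cell matrices. All 10 also passed the filter on low counts, which left 12939 genes for testing in bulk RNA. Each nucleated cell cuts its own proteins with the proteasome, moves the peptides into the endoplasmic reticulum through the Tap1 and Tap2 pump, and loads them with the help of Tapbp (tapasin) on a heavy chain paired with B2m. The loaded molecule is shown on the surface, where CD8 T cells read it and receptors of NK cells sense its presence. Interferon-gamma raises most of these genes, and Nlrc5 is a transactivator of class I genes.

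The study took cells from tumours of MC38, a mouse colon carcinoma line. KO mice were Ogt-flox Lyz2-cre and WT mice were Ogt-flox, so both carried the floxed Ogt gene, which encodes O-GlcNAc transferase, and the KO mice also carried cre. The cre is driven from the Lyz2 locus, which is active in macrophages, monocytes and neutrophils. RNA-seq of tumour-associated macrophages had 3 KO and 3 WT libraries. Single-cell RNA-seq of CD45+ immune cells had 2 KO and 2 WT samples by the labels but 1 matrix per genotype, so it has no replicates and no test. CUT&Tag for the transcription factor EGR2 gave a list of peaks for each genotype, and ATAC-seq, a map of open chromatin, had 1 merged list, from 3 KO and 3 WT samples each. The labels give no age or sex, and do not say whether the libraries came from separate mice or from pools, so the tests see only how far these libraries scatter, which may be technical.

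Ogt had 32.0, 39.1 and 33.0 CPM (read counts scaled to library size) in the KO libraries, against 61.0, 58.7 and 49.2 CPM in the WT libraries. The groups did not overlap, and the count covers the whole gene, so it does not measure how much intact Ogt was left. Lyz2, the lysozyme gene at the cre locus, had 82.5 to 85.6 CPM in KO and 3830.4 to 3938 CPM in WT, so the genotypes also differ in cre and in most of their Lyz2 RNA, and these cannot be told apart from the loss of Ogt. Library totals ran from 11468556 to 32406170 counts in KO and from 7032540 to 12439582 in WT. Macrophage markers had summed levels of 10942 to 11161 CPM in KO and 11822 to 12083 CPM in WT over 11 genes. CD8 T cell markers were higher in KO, at 213 to 226 CPM in KO against 107 to 111 CPM in WT (7 of 7 genes higher). CD4 T cell markers summed to 170.3 to 182 CPM in KO against 99.8 to 109 CPM in WT (5 of 6 tested genes higher). Those 5 genes, Cd3e, Cd3d, Cd3g, Trac and Trbc2, are also in the CD8 T cell list. Cd4 itself did not pass the test. NK cell markers summed lower, at 25.5 to 27.9 CPM in KO against 32.0 to 34.4 CPM in WT (2 of 7 tested genes higher, 3 lower), and so did markers of resting T cells, at 515 to 579 CPM in KO against 963 to 994 CPM in WT (2 of 6 higher, 3 lower). The defining markers of conventional type 1 dendritic cells (cDC1) summed to 2074 to 2100.0 CPM in KO against 1537 to 1561 CPM in WT (6 of 7 higher, 1 lower), those of cDC2 to 748 to 767 CPM in KO against 845 to 879.9 CPM in WT (4 of 6 lower), and those of migratory dendritic cells to 589 to 591 CPM in KO against 1035 to 1076 CPM in WT (6 of 7 tested lower). Classical monocyte markers summed to 859 to 884 CPM in KO against 545 to 558 CPM in WT (4 of 5 higher), genes of the Mmp12 and Mgl2 macrophage state to 1680.4 to 1743 CPM in KO against 3222 to 3252 CPM in WT (4 of 5 lower), and B cell markers to 111 to 118 CPM in KO against 54.3 to 55.9 CPM in WT (3 of 6 tested higher, 1 lower). No marker of these lists was at 0 in every library. In bulk RNA, more cells of another type and more RNA per cell cannot be told apart, and the part of these markers in the differences below was not tested.

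The promoters that the results turn on come from RefSeq (GRCm38.p6), as windows from 250 bases before to 50 bases after the gene start, 5′ to 3′ on the gene's strand. RefSeq windows were found for 8 of the 10 genes, and Tap2 and Nlrc5 had none. B2m, H2-K1 and H2-D1 are shown because the 3 chains of the class I molecule were higher in KO together. Capitals mark an interferon regulatory factor (IRF) element (TTTCNNTT, or AANNGAAA on the other strand) and NF-kB elements, which are the palindromic class I NF-kB element in H2-K1 and H2-D1 and a general NF-kB element in B2m.
H2-K1, chr17:34000284-34000583, minus strand: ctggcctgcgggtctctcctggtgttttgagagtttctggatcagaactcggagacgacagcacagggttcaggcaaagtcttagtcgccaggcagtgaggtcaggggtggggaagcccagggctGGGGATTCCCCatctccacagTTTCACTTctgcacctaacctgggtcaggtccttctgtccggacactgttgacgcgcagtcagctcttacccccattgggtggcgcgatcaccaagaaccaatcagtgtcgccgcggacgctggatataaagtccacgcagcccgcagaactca
H2-D1, chr17:35262844-35263143, plus strand: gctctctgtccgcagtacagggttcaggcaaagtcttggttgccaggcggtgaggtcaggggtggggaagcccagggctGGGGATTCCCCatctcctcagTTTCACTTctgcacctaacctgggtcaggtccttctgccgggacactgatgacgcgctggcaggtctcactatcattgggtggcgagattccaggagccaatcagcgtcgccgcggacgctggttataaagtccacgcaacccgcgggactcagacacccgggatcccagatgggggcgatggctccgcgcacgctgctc
B2m, chr2:122147437-122147736, plus strand: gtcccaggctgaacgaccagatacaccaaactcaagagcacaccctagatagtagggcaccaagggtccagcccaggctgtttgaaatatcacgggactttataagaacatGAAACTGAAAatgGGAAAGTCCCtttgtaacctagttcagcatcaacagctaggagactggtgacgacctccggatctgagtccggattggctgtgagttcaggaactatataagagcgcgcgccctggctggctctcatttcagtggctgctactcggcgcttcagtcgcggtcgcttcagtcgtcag
The H2-K1 and H2-D1 windows shared an unbroken run of 47 bases that holds the capitals of the NF-kB element, and both place the IRF element downstream of it. Among all 32851 RefSeq promoter windows, 0.0304% held the palindromic class I NF-kB element on either strand, 0.411% held the general NF-kB element and 23.9% held the short IRF element. The B2m window held a longer form of the IRF element, found in 3.44% of windows, which overlaps the short form. The CCAAT box (CCAAT or ATTGG, in 37.4% of windows) was present in the windows of H2-K1, H2-D1, B2m, Tap1, Psmb9 and Tapbp. The EGR element GCGNGGGCG, in 5.55% of windows, was in none of the 8, which says only that these letters are absent from these windows.

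Tap1 and Psmb9 face away from each other over a shared stretch of DNA, so their windows overlap by 275 bases on opposite strands, and 1 sequence serves for both. Psmb8 is shown because open chromatin and EGR2 peaks of both genotypes lay within 2 kb of its start. No IRF, NF-kB or EGR element was found in these windows, so they carry no capitals.
Tap1, chr17:34187306-34187605, plus strand: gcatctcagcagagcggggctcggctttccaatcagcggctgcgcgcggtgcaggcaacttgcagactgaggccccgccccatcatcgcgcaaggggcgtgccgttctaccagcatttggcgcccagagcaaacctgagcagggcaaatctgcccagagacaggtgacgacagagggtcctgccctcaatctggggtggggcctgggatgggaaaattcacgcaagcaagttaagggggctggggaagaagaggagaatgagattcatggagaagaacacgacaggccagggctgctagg
Psmb8, chr17:34197945-34198244, plus strand: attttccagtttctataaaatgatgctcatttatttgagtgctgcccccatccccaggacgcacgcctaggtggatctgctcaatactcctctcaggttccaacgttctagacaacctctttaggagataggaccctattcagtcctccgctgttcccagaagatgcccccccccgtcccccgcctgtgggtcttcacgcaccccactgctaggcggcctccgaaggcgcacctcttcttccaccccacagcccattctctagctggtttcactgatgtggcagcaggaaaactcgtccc

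In bulk macrophage RNA, 9 of the 10 genes were higher in KO, by 1.07-fold to 1.46-fold, and Psmb10 did not pass the test. The median log2 fold change of the 10 was 0.24, beside -0.0013 over all 12939 genes. The 9 genes stand beside a background in which 37.7% of all tested genes passed the test, 18.8% as higher in KO and 18.9% as lower (edgeR quasi-likelihood test, Benjamini-Hochberg adjusted p below 0.05). For the same 9 genes every KO library lay above every WT library, a pattern found for 23.3% of tested genes. The median gene called higher changed by 0.46 on the log2 scale, so the class I differences were repeated in every library but small.

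The chains of the class I molecule had the highest levels. H2-K1 (chromosome 17, 33996017 to 34000333, mm10), 1 of the 2 classical heavy chains, had 3700.1, 3777 and 3782 CPM in the KO libraries, against 3181, 3225 and 3171 CPM in the WT libraries. B2m (chromosome 2, 122147686 to 122153083), which every class I heavy chain needs, had 3632, 3619 and 3666 CPM in KO and 3083, 3092 and 3134 CPM in WT. H2-D1 (chromosome 17, 35262730 to 35267499), the other classical heavy chain, had 3919, 3981 and 3909.9 CPM in KO and 3655, 3727 and 3616 CPM in WT. In all 3 genes the KO libraries lay above the WT libraries without overlap, with log2 fold changes of 0.23 for H2-K1 (SE 0.0158, edgeR adjusted p = 7.58e-21), 0.23 for B2m (SE 0.0158, adjusted p = 1.43e-20) and 0.10 for H2-D1 (SE 0.0155, adjusted p = 9.45e-08). H2-D1 thus differed the least of the 9, at 1.07-fold. Per kilobase of exon, B2m was the most abundant of the 10, at 4232 CPM per kb in KO and 3608 in WT, above H2-D1 at 1526 in KO and 1421 in WT and H2-K1 at 1439 in KO and 1224 in WT.

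Both transporter subunits and Tapbp were higher in KO. Tap2 (chromosome 17, 34203527 to 34216321) had 139.9, 147.5 and 143.3 CPM in KO, against 97.1, 100.6 and 96.2 CPM in WT, the largest fold of the 10 at 1.46-fold (log2 0.55, SE 0.0552, edgeR adjusted p = 2.38e-13). Tap1 (chromosome 17, 34187553 to 34197225), its partner in the heterodimer, had 568, 569 and 587 CPM in KO and 461, 466 and 474 CPM in WT (log2 0.30, SE 0.0285, adjusted p = 2.76e-14). Tapbp (chromosome 17, 33915899 to 33929288), which holds empty class I molecules at the transporter, had 258, 246 and 255 CPM in KO and 190.5, 214 and 221 CPM in WT (log2 0.29, SE 0.0426, adjusted p = 6.12e-08). For each of the 3 genes the lowest KO library lay above the highest WT library. Some exon bases are shared with other annotated genes, 18.5% for Tap2, 726 of 3296 bases for Tapbp, and 212 bases between Tap1 and Psmb9, and the counting ignored strand and left out reads on several genes, so reads on the shared stretches were not counted.

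The inducible proteasome subunits split. Psmb8 (chromosome 17, 34197721 to 34201454), also called LMP7, had 248, 239 and 235 CPM in KO and 215, 193 and 209.6 CPM in WT (log2 0.22, SE 0.0418, edgeR adjusted p = 9.26e-06). Psmb9 (chromosome 17, 34181988 to 34187764), LMP2, had 225, 207 and 234 CPM in KO and 200.4, 184 and 175 CPM in WT (log2 0.25, SE 0.0455, adjusted p = 8.65e-06). Both were above WT in every KO library, by margins close to the spread within a genotype. Psmb10 (chromosome 8, 105935728 to 105938392), MECL-1, had 226, 222 and 223 CPM in KO and 227, 223 and 217 CPM in WT, with overlapping groups and a log2 difference of 0.0049 (95% interval -0.07 to 0.08, adjusted p = 0.939). Nlrc5 (chromosome 8, 94472763 to 94527272) had 263, 285 and 267 CPM in KO and 207, 205 and 202 CPM in WT, without overlap and 1.33-fold higher (log2 0.41, SE 0.0398, adjusted p = 8.34e-14).

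**Figure D1:**
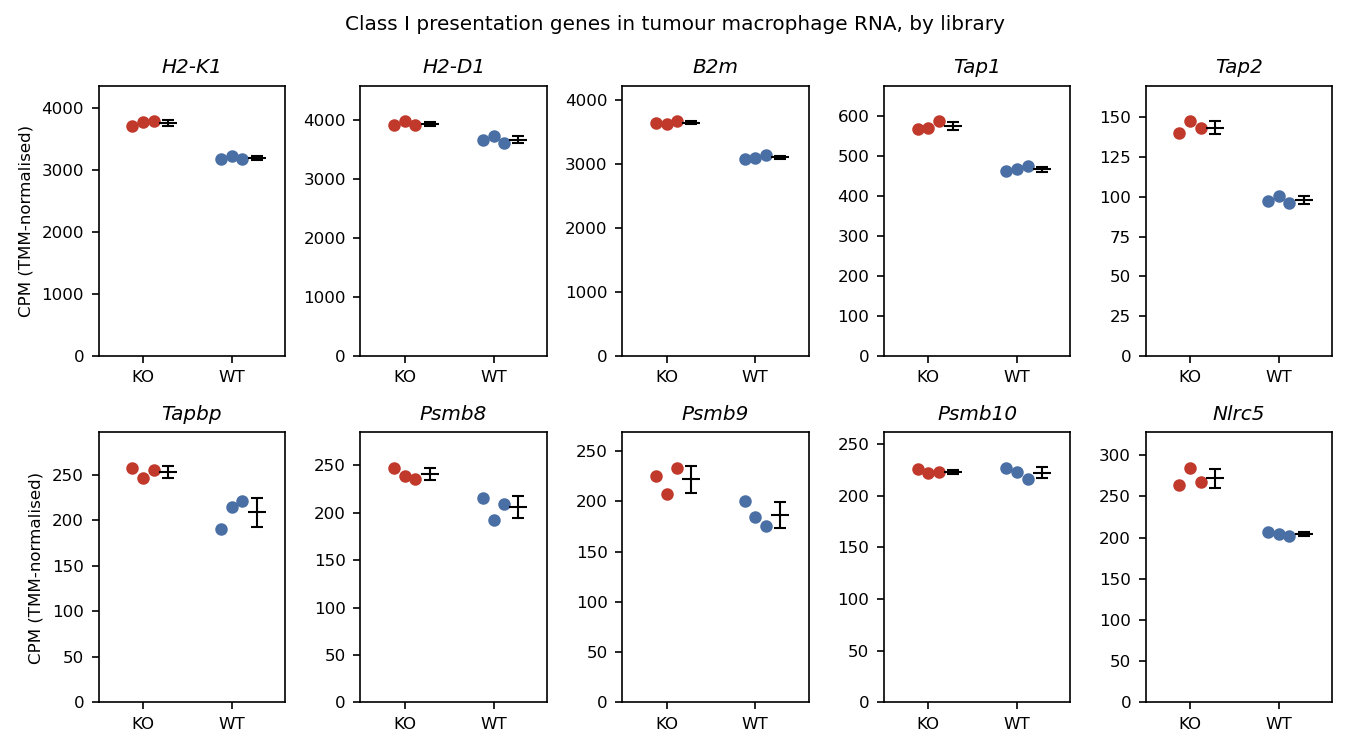
CPM (TMM-normalised) of each of the 10 genes in the 3 KO libraries (left, red) and the 3 WT libraries (right, blue), with mean and SD as black bars. The KO points lie above the WT points in 9 panels, and in the Psmb10 panel both sit between 217 and 227 CPM.

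The 3 inducible subunits replace Psmb5, Psmb6 and Psmb7 in the immunoproteasome, so each was set against its constitutive partner per kilobase of exon. The ratio of Psmb10 to Psmb7 was 6.68, 6.21 and 5.57 in KO and 9.19, 9.30 and 8.94 in WT. Each KO library was below each WT library, a log2 difference of -0.58 (exact permutation test, 2-sided p = 0.1, the smallest that 3 against 3 allow). Psmb7 itself had 90.9, 96.2 and 108 CPM in KO and 66.6, 64.7 and 65.3 CPM in WT, so the constitutive partner was higher where Psmb10 was level. The ratio of Psmb9 to Psmb6 was 0.634, 0.623 and 0.67 in KO and 0.588, 0.547 and 0.511 in WT, a log2 difference of 0.23 in the opposite direction (exact p = 0.1). Psmb8 to Psmb5 overlapped, at 1.67, 1.35 and 1.67 in KO and 1.53, 1.38 and 1.35 in WT (0.14, exact p = 0.3), and leaving out 1 library gave 0.0858 (without KO replicate 3) to 0.239 (without KO replicate 2). Summed over the 3 pairs the balance was 1.85, 1.74 and 1.82 in KO and 1.90, 1.83 and 1.74 in WT, with overlapping groups (-0.015, exact p = 0.7).

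Genes that work beside the 10 moved in several directions. Of 10 peptide trimming and loading partners, 5 were higher and 3 lower, with a median log2 fold change of 0.07. Pdia3, the disulfide isomerase ERp57 of the loading complex, averaged 992 ± 23.9 CPM in KO and 724 ± 7.66 CPM in WT (SD, n = 3 each), 1.37-fold higher (edgeR adjusted p = 6.87e-26). Erap1, which trims peptides in the endoplasmic reticulum, averaged 90.4 ± 2.26 CPM in KO and 62.8 ± 5.67 CPM in WT (1.43-fold, adjusted p = 8.96e-09). Sec61b, a subunit of the protein channel of the endoplasmic reticulum, was lower at 87.3 ± 2.03 CPM in KO against 124 ± 13.2 CPM in WT (0.705 of WT, adjusted p = 2.49e-10), and Tpp2, a cytosolic peptidase, was 1.28-fold higher (adjusted p = 7.03e-07).

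Of the 13 tested other class I heavy chains among 15 listed, 7 were higher and 6 did not pass the test, with a median of 0.13. H2-Q4 was 1.13-fold higher at 709.5 ± 10.2 CPM in KO against 625 ± 8.29 CPM in WT (adjusted p = 2.44e-08), and H2-T22 was 1.16-fold higher (adjusted p = 3.62e-06). These genes and H2-Q6 and H2-Q7 are close paralogs, and reads that map to several places were left out, so their counts are uncertain. Of 9 proteasome activator and assembly genes, 3 were higher (Psme4, 1.38-fold; Pomp, the assembly chaperone, 1.16-fold; Psme1, 1.09-fold) and Psmg4 was lower. Of 11 other subunits of the 20S core, 3 were higher and 5 lower, with a median of -0.07. Of 9 MHC class II genes, 2 were higher and 4 lower, with a median of -0.03.

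Of 13 genes of interferon-gamma signalling, 5 were higher and 4 lower, with a median of 0.06. Irf1, the interferon-induced factor that binds IRF elements, averaged 791 ± 23.2 CPM in KO and 552 ± 11.1 CPM in WT (1.44-fold, adjusted p = 6.13e-27). Irf8 was 1.18-fold higher (adjusted p = 9.98e-12). In bulk RNA both chains of the interferon-gamma receptor were lower. Ifngr1 had 229 ± 4.07 CPM in KO against 261 ± 1.65 CPM in WT (edgeR adjusted p = 4.37e-05). Ifngr2 had 183 ± 3.68 CPM in KO against 223 ± 9.98 CPM in WT (adjusted p = 1.37e-07). In the single cells described below, Ifngr1 was also lower, with KO over WT ratios of 0.702 in macrophage-like and 0.835 in monocyte-like cells. Ifngr2 was higher there, at 1.12 (95% interval 1.07 to 1.18) and 1.16 (1.06 to 1.27). Of 9 factors that bind class I and II promoters, 1 was called in bulk RNA. It was Ciita, the class II transactivator and relative of Nlrc5, at 205 ± 4.62 CPM in KO and 175 ± 6.25 CPM in WT. In single cells Ciita had ratios of 0.924 in macrophage-like cells (95% interval 0.852 to 1.002) and 2.09 in monocyte-like cells. Among receptors that sense class I, Klrc1, which encodes the NK receptor NKG2A, was higher at 34.3 ± 1.43 CPM in KO against 14.5 ± 2.96 CPM in WT (adjusted p = 7.68e-13), alongside the CD8 T cell markers given above. Pirb, a class I receptor of myeloid cells, was lower at 383 ± 3.76 CPM in KO against 429.6 ± 4.15 CPM in WT (adjusted p = 6.45e-06).

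Single cells placed the same 10 genes in named classes. After filtering, 9714 KO cells and 9671 WT cells remained, with median depths of 5792 UMIs (unique molecular identifiers) in KO and 5565 in WT, and 23 barcodes occurred in both matrices. Cells were clustered without the class I and proteasome genes. The macrophage-like class held 2547 KO and 2556 WT cells, the monocyte-like class 1036 KO and 1275 WT cells, and the neutrophil-like class 751 KO and 603 WT cells. A dendritic cluster of 202 KO and 245 WT cells was named cDC1 by its best score but also held cDC2-like cells, and is called the dendritic cluster here. In the macrophage-like class Lyz2 had 13.7 CPM in KO and 3026 CPM in WT, and Ogt had 42.0 CPM in KO and 52.4 CPM in WT. Ogt was also lower in KO in monocyte-like (38.9 against 53.9 CPM in WT) and neutrophil-like cells (63.1 against 107 CPM in WT). In lymphoid classes Ogt went both ways. It had 177 CPM in KO and 210 CPM in WT in CD4 T-like cells, and 121 CPM in KO and 103 CPM in WT in CD8 T-like cells. Lyz2 was also lower in KO in the monocyte-like class (15.5 CPM in KO against 6599.5 CPM in WT), the neutrophil-like class (47.6 CPM in KO against 305 CPM in WT) and the dendritic cluster (4.46 CPM in KO against 433 CPM in WT).

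For 6 of the 10 genes the highest level among the 10 larger classes was in regulatory T-like cells, not in macrophage-like cells. Levels are CPM of the UMIs summed over a class, and compare classes for 1 gene. Classes are ordered by the mean of both matrices. Regulatory T-like cells led for H2-K1, with 4816 CPM in KO and 4251 CPM in WT, followed by CD4 T-like cells (3404 CPM in KO and 3209 CPM in WT), then a class of gamma-delta T or innate lymphoid cells (the gamma-delta class below), NK-like, resting T-like and CD8 T-like cells, whose levels overlapped between neighbours when both matrices are taken as the range. Macrophage-like cells had 2022 CPM in KO and 1554 CPM in WT, monocyte-like cells 2008 CPM in KO and 1459 CPM in WT, and neutrophil-like cells 1942 CPM in KO and 1082 CPM in WT. The dendritic cluster had 1603 CPM in KO, the lowest KO level among the 10 larger classes, and 1306 CPM in WT, and these 4 classes overlapped with their neighbours. By that mean H2-D1, B2m, Tap1, Tap2 and Tapbp were also highest in regulatory T-like cells. Tap1, for example, had 271 CPM in KO and 269.6 CPM in WT, against 140.4 CPM in KO and 103 CPM in WT macrophage-like cells. For H2-D1, B2m and Tapbp the ranges of both matrices overlapped with other classes. In the KO matrix Tapbp was higher in neutrophil-like cells, at 251 CPM, than in regulatory T-like cells, at 225 CPM.

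The inducible proteasome followed another order. Psmb8 was highest in the dendritic cluster, at 1106 CPM in KO and 992 CPM in WT, above regulatory T-like cells at 716 CPM in KO and 714 CPM in WT, and lowest in neutrophil-like cells at 296 CPM in KO and 153 CPM in WT. Psmb9 was also highest in the dendritic cluster (792 CPM in KO and 759 CPM in WT). Its lowest levels were in resting T-like cells (184 CPM in KO and 182 CPM in WT) and neutrophil-like cells (246 CPM in KO and 132 CPM in WT). Within the dendritic cluster the cDC1-like cells, sub-cluster D2 led by Cadm1, Itgae, Xcr1 and Clec9a (57 KO and 81 WT cells), carried 1411 CPM of Psmb8 in KO and 1373 CPM in WT, and 1162 CPM of Psmb9 in KO and 1161 CPM in WT. The cDC2-like cells of sub-cluster D0 (33 KO and 41 WT cells) had 609 CPM of Psmb8 in KO and 508 CPM in WT. Psmb10 was highest in monocyte-like cells (204.8 CPM in KO and 191.4 CPM in WT) and lowest in neutrophil-like cells (62.2 CPM in KO and 39.9 CPM in WT).

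Nlrc5 was low in macrophage-like cells, at 89.8 CPM in KO and 63.8 CPM in WT, and in NK-like cells, at 70.4 CPM in KO and 57.1 CPM in WT. It was highest in the gamma-delta class, at 285 CPM in KO and 214 CPM in WT, and reached 197 CPM in KO and 155 CPM in WT monocyte-like cells. Over 20 sums (10 classes in 2 matrices), Psmb8 and Psmb9 had a Pearson r of 0.87 and H2-D1 and B2m of 0.80, whereas Nlrc5 had r values of -0.25 with Psmb9 and -0.18 with Psmb8. Among the genes most like the mean of the 10, of 8226 genes, were Triobp, Clcn5 and Il15ra (r = 0.81 each), and the gene most like Nlrc5 was Igtp, an interferon-induced GTPase (r = 0.88). These are descriptions over sums that share 2 libraries and their depths.

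**Figure D2:**
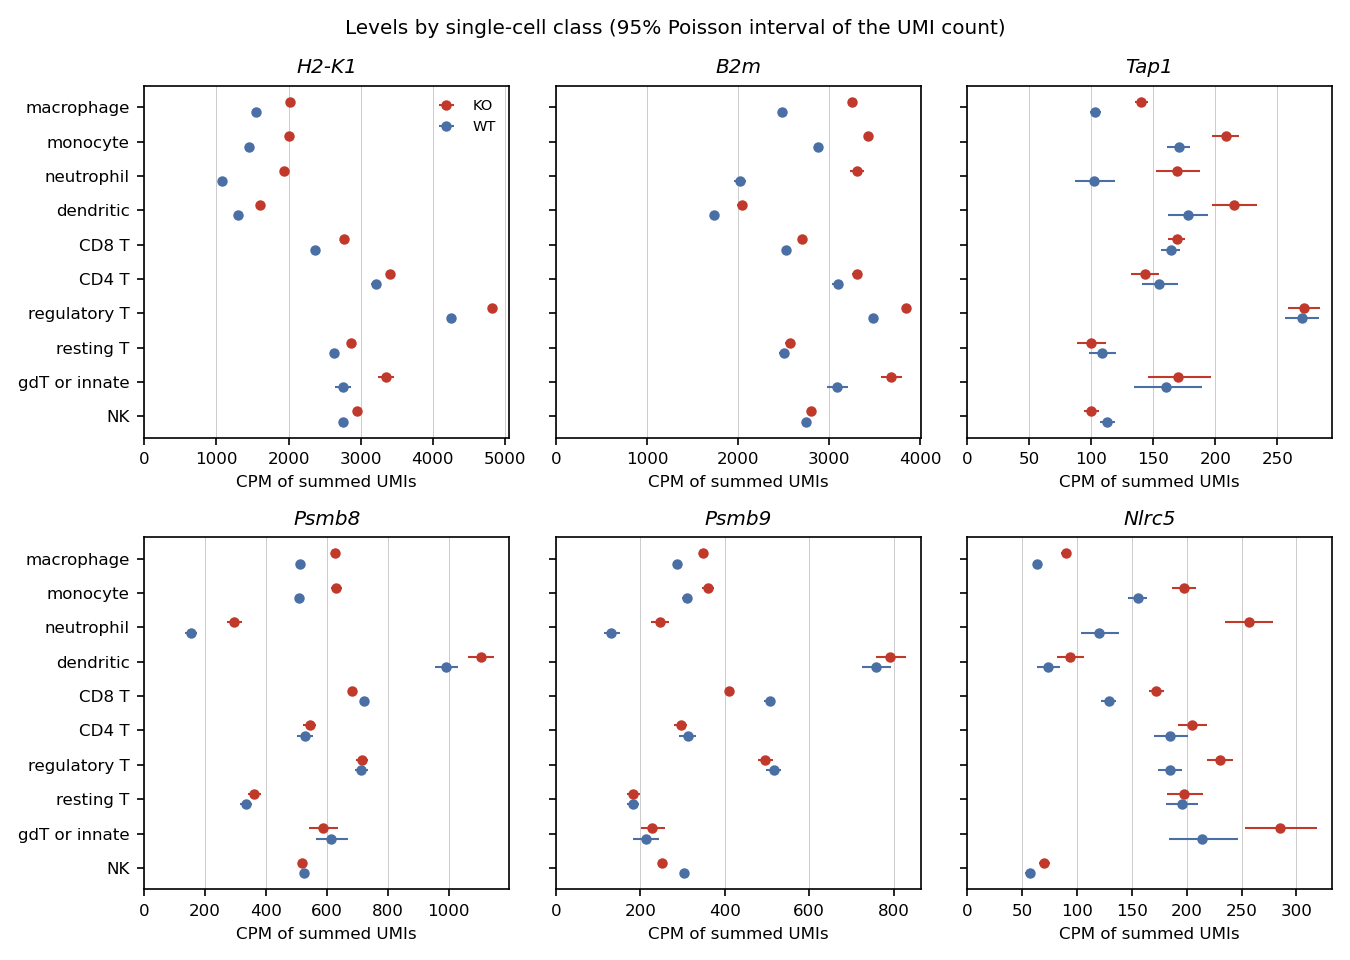
CPM of summed UMIs for 6 of the genes (x axes) in the 10 larger single-cell classes (rows), KO in red above WT in blue, with 95% Poisson intervals that cover counting error only. H2-K1, B2m and Tap1 are highest in regulatory T-like cells, Psmb8 and Psmb9 in the dendritic cluster, and Nlrc5 in the gamma-delta class.

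In the myeloid classes and the dendritic cluster all 10 genes were at a higher level in the KO matrix. In macrophage-like cells all 10 genes had a KO over WT ratio above 1, from 1.13 for Psmb10 to 1.41 for Nlrc5. Among genes of at least 20 CPM in that class, 64.5% had a ratio above 1. Of the 10, 8 passed 1.2-fold, as 17.2% of genes of at least 20 CPM did. The median log2 ratio of the 10 was 0.33, beside 0.07 over all such genes. H2-K1 had 2022 CPM (95% Poisson interval 2003 to 2041) in KO and 1554 CPM (1537 to 1571) in WT, B2m had 3248 CPM in KO and 2482 CPM in WT, and Nlrc5 had 89.8 CPM (85.9 to 93.9) in KO and 63.8 CPM (60.3 to 67.3) in WT. The intervals cover counting error and not the difference between mice. H2-D1 (1.16) and Psmb10 (1.13), the genes with the smallest folds in bulk RNA, also had the smallest ratios here.

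Monocyte-like cells showed the same direction for all 10, where 50.5% of genes had a ratio above 1. The ratios ran from 1.07 for Psmb10 to 1.38 for H2-K1, with a median log2 ratio of 0.26 beside 0.0023 over all genes. Past 1.2-fold were 5 of 10, where 9.67% of genes were. In the dendritic cluster all 10 ratios were above 1 as well, as were those of 48.6% of genes. They ran from 1.02 for Psmb10 to 1.27 for Nlrc5, with a median log2 ratio of 0.23 and 4 of 10 past 1.2-fold against 12.9% of genes. Its sub-clusters were uneven. D1, an unnamed group led by Ccl17, Pltp and Mmp12 (88 KO and 103 WT cells), had a median log2 ratio of 0.35, with Psmb8 at 911 CPM in KO and 649.6 CPM in WT (ratio 1.40, 95% interval 1.26 to 1.56). In the cDC1-like D2 the median was 0.17, and the ratios were 1.03 for Psmb8, 1.001 for Psmb9 and 0.775 for Psmb10 (95% interval 0.601 to 0.997). The sub-clusters were not tested against each other.

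For each of the 10 genes, neutrophil-like cells had the largest ratio of the 10 larger classes, and these ratios were not tested against those of other classes. All 10 genes passed 1.2-fold, against 19.1% of genes, with a median log2 ratio of 0.76 beside -0.10 over all genes. Nlrc5 had 256 CPM (95% Poisson interval 235 to 279) in KO and 120 CPM (104 to 139) in WT, a ratio of 2.13. Psmb8 had 296 CPM in KO and 153 CPM in WT (ratio 1.94), Psmb9 246 CPM in KO and 132 CPM in WT (1.87), and B2m 3306 CPM in KO and 2020.1 CPM in WT (1.64), and the ratio of H2-K1 was 1.80. These cells are shallow, with median depths of 2500 UMIs in KO and 2300 in WT, and 63 to 7015 UMIs stood behind each gene's sum in a genotype. Irf1 was 2.44 times the WT level in the same cells, with 843 CPM in KO against 345 CPM in WT. The constitutive partners had ratios of 0.82 for Psmb5, 0.756 for Psmb6 and 0.892 for Psmb7, on 49 to 84 UMIs a genotype and with 95% intervals that include 1.

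Free RNA in the droplets also held these genes. Barcodes with under 100 UMIs held 4308 CPM of H2-K1 in KO and 3437 CPM in WT, 3198 CPM of B2m in KO and 2627 CPM in WT, and 139 CPM of Nlrc5 in KO and 101 CPM in WT, so free RNA was also richer in these 3 genes in KO. Its levels of H2-K1 lay above those of all myeloid classes, and its part in the myeloid levels was not tested. The KO over WT ratios in free RNA were 1.254 for H2-K1, 1.22 for B2m and 1.38 for Nlrc5. They were near the macrophage-like ratios of 1.30, 1.31 and 1.41. Free RNA exceeded macrophage-like cells for H2-D1 (1.163 against 1.159) only. It exceeded monocyte-like cells for B2m (1.22 against 1.19), Tapbp (1.24 against 1.17) and Nlrc5 (1.38 against 1.27) only. Its ratios lay above those of the dendritic cluster for H2-K1 (1.254 against 1.227), H2-D1, B2m, Tapbp and Nlrc5. They lay below for Tap1, Tap2, Psmb8, Psmb9 and Psmb10. The level of Nlrc5 in free RNA also lay above that of macrophage-like cells. For Psmb9 and Psmb10 the free RNA ratios were 0.97 each, where macrophage-like cells had 1.22 and 1.13. After thinning each cell to 1000 UMIs, Nlrc5 was seen in 19.8% of KO and 9.71% of WT neutrophil-like cells (39.1% in KO and 20.2% in WT unthinned). In macrophage-like cells it was seen in 9.16% in KO and 7.09% in WT (39.2% in KO and 31.8% in WT unthinned, at median depths of 6236 UMIs in KO and 6052 in WT).

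In each of the 6 lymphoid classes some of the 10 genes had ratios above 1 and others below. CD8 T-like cells (1487 KO and 1040 WT cells) had a median log2 ratio of 0.0012 and 1 of 10 genes past 1.2-fold where 9.93% of genes were. The class pools 3 clusters in different shares: cluster 13 held 704 of the KO and 341 of the WT cells, with ratios of the 10 genes from 0.752 for Psmb9 to 1.58 for Nlrc5, and cluster 11 held 521 KO and 416 WT cells, with ratios from 0.799 for Psmb10 to 1.10 for H2-D1. Over the whole class, Nlrc5 had 172 CPM in KO and 129 CPM in WT (ratio 1.34) and H2-K1 2768 CPM in KO and 2372 CPM in WT (1.17), while Psmb9 had 411 CPM in KO and 507 CPM in WT (0.811) and Psmb10 130 CPM in KO and 152 CPM in WT (0.855). NK-like cells (1074 KO and 1416 WT cells) had a median of -0.0036, with Nlrc5 at 1.23 and Psmb9 at 0.83, and 1 of 10 past 1.2-fold where 5.2% of genes were. Regulatory T-like, CD4 T-like and resting T-like cells had medians of 0.04, 0.06 and 0.02, and the gamma-delta class 0.09. Past 1.2-fold higher were 1 of 10 in regulatory T-like cells (6.47% of genes), 0 in CD4 T-like cells (9.59%), 0 in resting T-like cells (10.2%) and 3 in the gamma-delta class (21.4%). H2-K1, H2-D1, B2m and Nlrc5 had ratios above 1 in each of these 6 lymphoid classes, from 1.01 for Nlrc5 in resting T-like cells to 1.34 for Nlrc5 in CD8 T-like cells. In 3 small classes the counts were 6 of 10 in B-like cells (54% of genes), 1 in plasmacytoid dendritic-like cells (38.1%) and 7 in a cluster led by Tm4sf1, Col3a1 and Rhox5 (34.8%). With 1 matrix per genotype, the difference between myeloid and lymphoid classes was not tested. Lyz2 had 0.213 CPM in KO and 37.6 CPM in WT in CD8 T-like cells, and 0.0971 CPM in KO and 25.7 CPM in WT NK-like cells.

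**Figure D3:**
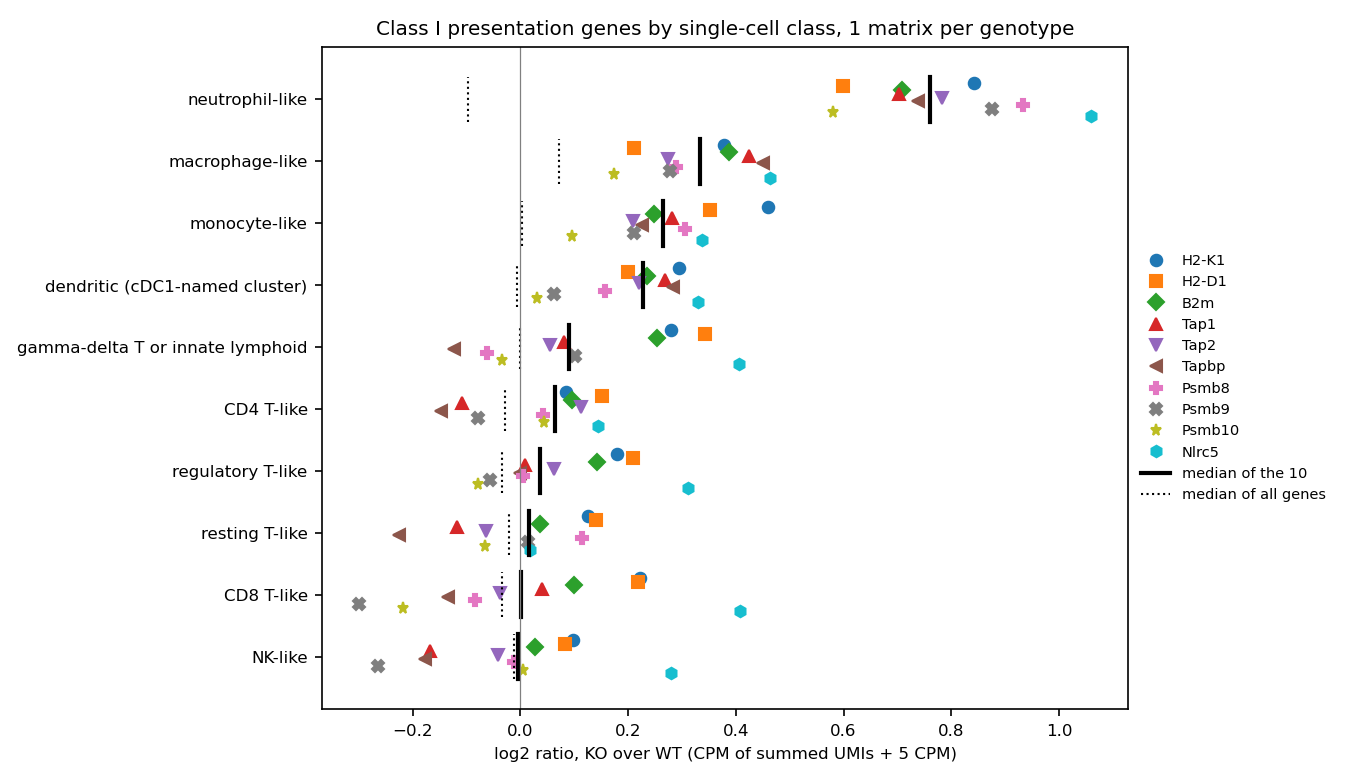
Log2 ratio of KO over WT (x axis, CPM of summed UMIs with 5 CPM added) for each of the 10 genes (symbols) in the 10 larger single-cell classes (rows), with the median of the 10 as a solid bar and the median of all genes of at least 20 CPM as a dotted bar. All symbols lie right of 0 in the neutrophil-like, macrophage-like and monocyte-like rows and the dendritic row, and on both sides of 0 in the 6 lymphoid rows.

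Macrophage-like and monocyte-like cells together fell into 14 sub-clusters, M0 to M13, whose shares differed between the genotypes. M3, led by Nos2, Ccl5, Iigp1 and Cxcl9, made up 11.4% of KO cells (407 of 3583) and 1.62% of WT cells (62 of 3831), and M11, rich in H2-DMb1 and H2-DMb2, 6.08% in KO and 14.7% in WT. As an alternative added after seeing the data, KO levels of the sub-clusters were weighted by the WT shares of summed UMIs, not of cells. The KO over WT ratios of the 10 genes then ran from 1.11 for Psmb10 to 1.27 for H2-K1. With the genotypes' own shares they ran from 1.11 to 1.32. B2m and Psmb8 were higher in KO in 14 of 14 sub-clusters, H2-K1 and H2-D1 in 13, Psmb9 and Nlrc5 in 12, Tap1, Tapbp and Psmb10 in 11, and Tap2 in 10.

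The states differed in level, and M12 and M13, described last, are left out of this order. H2-K1 was highest in M10, non-classical monocyte-like cells led by Ace and Fabp4, at 2717 CPM in KO and 1929 CPM in WT, and in M2, led by Cadm1 and Vcam1 and left unnamed because it held more markers of cDC1, at 2654 CPM in KO and 1895 CPM in WT. It was lowest in M4, Arg1 macrophage-like cells led by Pf4 and Arg1, at 1506 CPM in KO and 1061 CPM in WT. Psmb8 was highest in M7, C1q-high macrophage-like cells of low depth (median 2965 UMIs in KO and 2302 in WT), at 1109 CPM in KO and 778 CPM in WT, and lowest in M4, at 391 CPM in KO and 328 CPM in WT. Nlrc5 was highest in M5, interferon monocyte-like cells led by Ifit3, Cmpk2 and Rsad2, at 253 CPM in KO and 203 CPM in WT. It was lowest in the same M7 cells that led for Psmb8, at 14.5 CPM in KO and 24.3 CPM in WT. These M7 values rest on 7 UMIs in KO and 10 in WT (ratio 0.598, 95% interval 0.193 to 1.74).

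The ratios of the states were not tested against each other. In M0, classical monocyte-like cells led by Chil3 and Ly6c2, 8 of 10 genes passed 1.2-fold, as 11.9% of genes did there, and the median log2 ratio was 0.35, with H2-K1 at 1848 CPM in KO and 1212 CPM in WT. In M4 the median was 0.43, with Tap1 at 109 CPM in KO and 76.0 CPM in WT and Nlrc5 at 114 CPM in KO and 75.6 CPM in WT. In M5 the median was 0.10, and Psmb9 had 385 CPM in KO and 409 CPM in WT. In M6, led by Hilpda, Inhba and Vegfa (250 KO and 291 WT cells), the median was 0.04 and the highest ratio was 1.19, for B2m. M9, cycling cells led by Top2a, had a median of 0.61 over only 43 KO and 32 WT cells. M12 held T cell transcripts (Cd3g, Trbc2), and M13 was an unnamed group of low depth in which H2-K1 had 1035 CPM in KO and 1451 CPM in WT. Without M12 the macrophage-like median was 0.35 in place of 0.33, an alternative added after seeing the data.

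**Figure D4:**
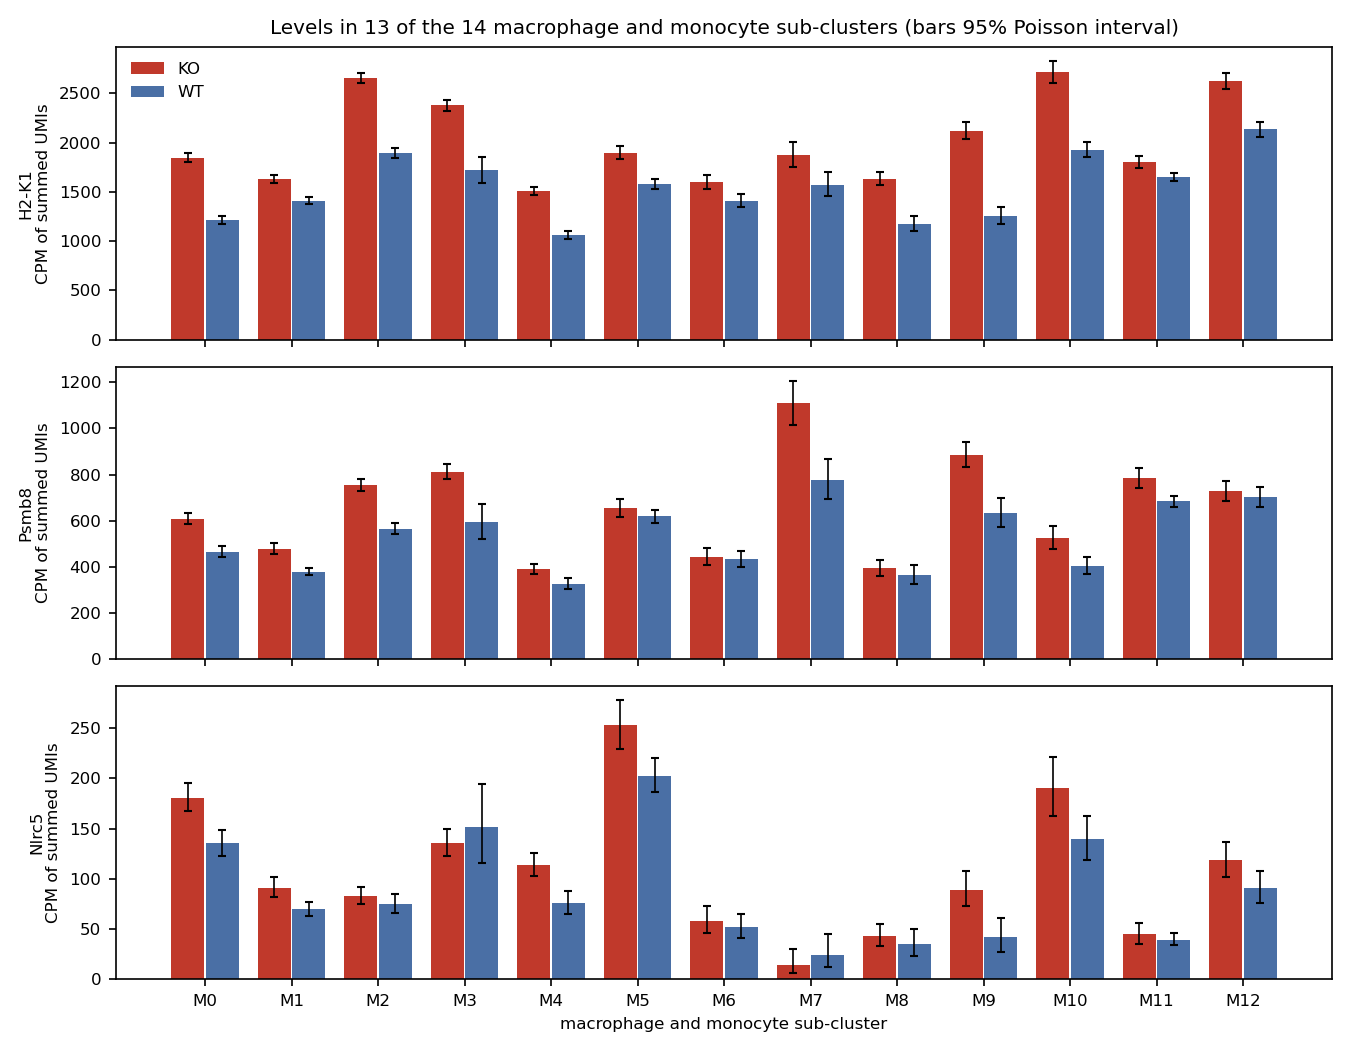
CPM of summed UMIs (y axes) for H2-K1, Psmb8 and Nlrc5 in the macrophage and monocyte sub-clusters M0 to M12 (x axis; M13, with 41 KO and 60 WT cells of low depth, is left out), KO in red to the left of WT in blue, with 95% Poisson intervals. KO bars are higher than WT bars for H2-K1 and Psmb8 in all 13, and for Nlrc5 in all but M3 and M7. The 95% intervals of the Nlrc5 ratio include 1 in M3 and M7, as they do in M2, M6 and M8.

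EGR2, the transcription factor of the study's title, and open chromatin were compared near the gene starts. An EGR2 peak lay within 2 kb of the start of 1 of the 10 genes in the KO list and of 1 in the WT list, beside 1.51% of all 12939 tested genes in the KO list and 2.01% in the WT list. Starts are those of the bulk annotation, and for Psmb8, Psmb9, H2-D1 and Tapbp the RefSeq start lies further downstream. Both belonged to Psmb8: the KO peak (chr17:34198072-34198572) was centred 601 bp and the WT peak (chr17:34198676-34199176) 1205 bp downstream of the start, and they did not overlap. Their authors' scores stood at the 78.4th percentile of the KO list and the 96.7th percentile of the WT list, and scores of different lists are not compared. H2-D1 had a WT peak 2357 bp downstream of its start, just outside the window, and 1993 bp from its RefSeq start. By RefSeq starts, added after seeing the data, the WT list had a peak near 2 of the 8 genes with such a start. The share of all genes by RefSeq starts was not computed, so this count has no background beside it. Of all EGR2 peaks, 12.3% of the KO list and 11.4% of the WT list overlapped a peak of the other list.

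The merged ATAC list had a peak within 2 kb of 5 of the 10 starts (H2-K1, H2-D1, Tap1, Psmb8 and Psmb9), beside 12.7% of all tested genes. By RefSeq starts it was 6 of 8, with Tapbp added by a peak 1841 bp from its RefSeq start. This count too has no share of all genes by RefSeq starts beside it. The Tap1 and Psmb9 peak was 1 peak, centred 316 bp downstream of the Tap1 start and 105 bp upstream of the Psmb9 start. The H2-K1 peak over the promoter shown above was centred 130 bp upstream of the start. The Psmb8 peak, centred 152 bp downstream of the start, was in the top of the list by score (99.0th percentile) and overlapped the start of the promoter shown. By their names, the H2-D1, Tap1 and Psmb8 peaks came from the KO calls and both H2-K1 peaks from the WT calls. The merged list keeps 1 peak per place, so these names do not compare the genotypes. B2m, Psmb10 and Nlrc5 had no EGR2 or ATAC peak within 5 kb of the gene body.

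**Figure D5:**
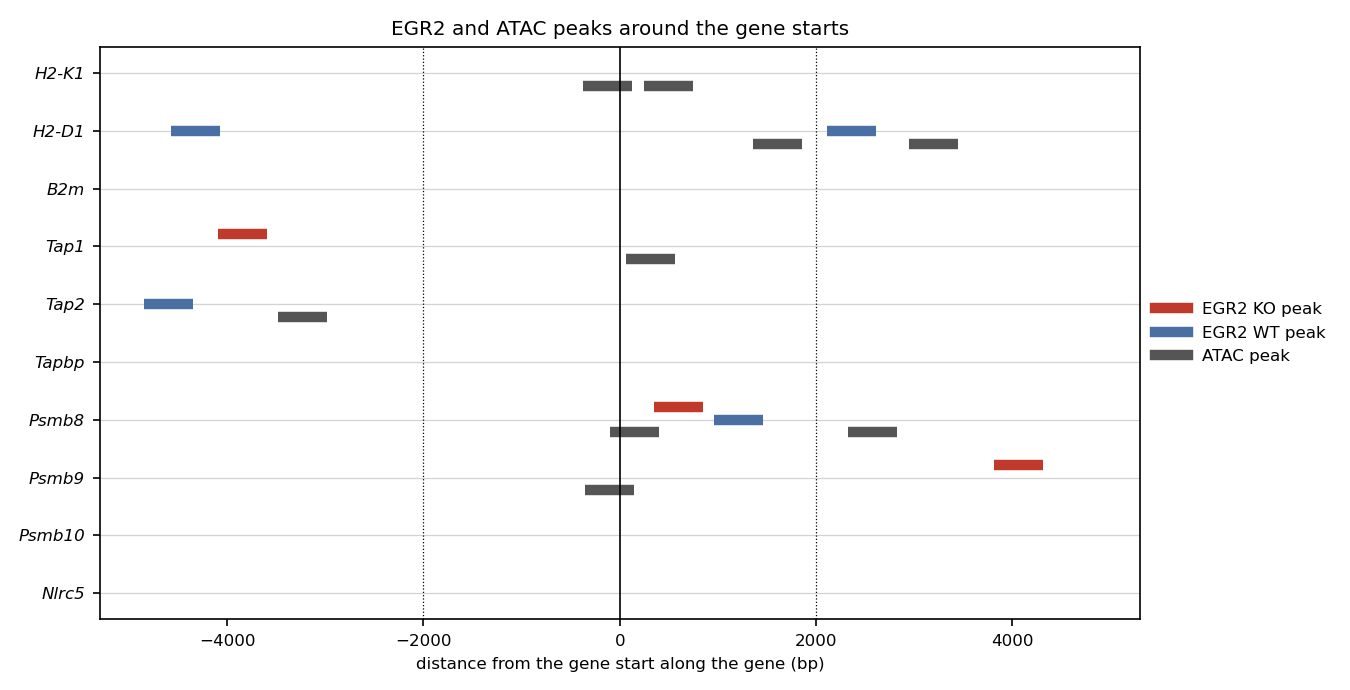
EGR2 peaks of KO (red, upper) and WT (blue, middle) and ATAC peaks (grey, lower) by distance from the start of each of the 10 genes along the gene (x axis, bp); each bar is 1 peak and the dotted lines mark 2000 bp. Psmb8 is the gene with all 3 kinds of peak inside the dotted lines.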

How the data were processed

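Bulk RNA values are counts per gene that the authors deposited; per the file headers they were made with featureCounts 2.0.6 on GENCODE vM10 exons, and the command sets no strand and no option that keeps multi-mapped reads or reads on several genes. It also counts each read of a pair. The single-cell matrices are UMI counts that the authors deposited for all barcodes, made with Cell Ranger 8.0.1 per the file headers. Peak lists hold the authors' score per peak, comparable only within a list, and no source used here names the peak caller. The genome build was mm10, per the submitters' processing notes.

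Bulk counts were filtered with filterByExpr, TMM-normalised and tested with the quasi-likelihood test of edgeR 4.0.16 over all 12939 genes (Benjamini-Hochberg, threshold 0.05), with DESeq2 1.42.0 as an alternative. A cell was kept with 500 genes or more, 1000 UMIs or more and no more than 10% of its UMIs from mitochondrial genes, doublets called by Scrublet were removed (3.69% in KO and 5.31% in WT), and cells were clustered with scanpy 1.11.5 (Leiden resolution 1). UMIs were summed per class. Ratios on the log2 scale add 5 CPM, which understates the change of low genes. The 10 genes, the gene lists and the cell type markers were chosen with earlier results of these data known, and the motif letters after the sequences were seen. Genes beside the 10 were named as the up to 4 called genes of each list with the smallest adjusted p, plus genes a result turns on. Some genes that these rules name are not reported here. The bulk RNA test was also run on simulated counts. Intervals cover counting error only. The replicate numbers were not taken to pair KO and WT libraries, and a fit with a replicate block was an alternative. How same-numbered libraries deviated cannot show whether they were collected in pairs.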

Additional observations from a re-analysis of the deposited data

How the results depend on the processing

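In bulk RNA the count of class I genes called higher was 9 with RLE size factors, with DESeq2, with no filter, with counts as read pairs, with the replicate block, and without each library in turn. Over all genes 4874 were called, 4691 with the replicate block and 3991 to 4587 without 1 library. The replicate numbers were not taken to pair the libraries. The correlations of same-numbered libraries' deviations were -0.0048, 0.0019 and 0.0112, which cannot show whether the libraries were collected in pairs. Psmb10 ran from -0.0158 to 0.0220 on the log2 scale without 1 library, and was -0.0158 without WT replicate 3. The summed subunit balance ran from -0.0490 to 0.0154, and was 0.0154 without WT replicate 1 and 0.0127 without KO replicate 2. The cause was not tested. In macrophage-like cells the median log2 ratio of the 10 genes was 0.26 with the mean over cells of CPM per cell, against 0.33, and 0.26 to 0.35 over 9 alternatives. In neutrophil-like cells it was 0.51 with the stricter cell filter, against 0.76. The class with the highest level stayed the same for 10 of 10 genes in 8 alternatives. Among these, adding 1 CPM to the ratios in place of 5 CPM does not enter the levels, so it could not change the class. With a window of 5 kb, EGR2 peaks lay near 4 genes in the KO list and 3 in the WT list, beside 3.76% of all tested genes in the KO list and 4.62% in the WT list. Neighbouring genes shared peaks, so these genes are not separate cases. In the KO list 1 peak lay near both Tap1 and Psmb9, and another near both Psmb8 and Tap2. In the WT list 1 peak lay near both Psmb8 and Tap2. With 1 matrix per genotype, differences in single cells have no replicate check. The parts of mixed cell types in the bulk libraries and of free RNA in the droplets were not tested.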

Other observations

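H2-Q6 and H2-Q7, non-classical class I heavy chains of the Qa-2 family, had higher ratios in single cells than in bulk macrophage RNA. The genes named here were chosen after their values were seen. In macrophage-like cells H2-Q7 had 455 CPM in KO and 264 CPM in WT (ratio 1.72) and H2-Q6 had 179 CPM in KO and 112 CPM in WT (1.595). H2-T10 had 37.2 CPM in KO and 11.0 CPM in WT in the same cells (3.39). Its 1.08-fold difference in bulk RNA did not pass the test (edgeR adjusted p = 0.075). The H2-T10 ratio was 3.57 in CD8 T-like cells (121 CPM in KO and 33.9 CPM in WT), 2.96 in monocyte-like and 2.64 in neutrophil-like cells. In neutrophil-like cells H2-Q7 had 574 CPM in KO and 113 CPM in WT (ratio 5.06) and H2-Q6 had 334 CPM in KO and 67.2 CPM in WT (4.97). In CD8 T-like cells, H2-Q7 had 1212 CPM in KO and 772 CPM in WT (1.57). In bulk RNA H2-Q6 was 1.06-fold and H2-Q7 0.987-fold the WT level. H2-T23, which encodes Qa-1, went the other way in macrophage-like cells, at 178 CPM in KO and 220.0 CPM in WT (0.807), and was 1.10-fold higher in bulk RNA. Its ratio was 0.798 in CD8 T-like, 0.91 in monocyte-like and 1.04 in neutrophil-like cells. These genes are near-identical in part, and how each method assigned shared reads was not tested.

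Small classes had wide intervals. In plasmacytoid dendritic-like cells (18 KO and 32 WT cells) the median log2 ratio of the 10 genes was -0.19, and in B-like cells (40 KO and 31 WT cells) it was 0.34, where 54% of all genes passed 1.2-fold.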
